A study of Mus musculus with 8 samples.

Results

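The integrated stress response and the unfolded protein response were followed through 10 genes, Eif2ak1, Atf4, Ddit3, Trib3, Asns, Chac1, Sesn2, Ppp1r15a, Hspa5 and Xbp1. They were taken by name and matched to 10 of the 37620 Ensembl gene IDs counted. RNA depleted of ribosomal RNA came from erythroid progenitors of C57BL/6 mouse fetal livers (E14.5), which had been sorted magnetically, transduced and then kept for 24 h with erythropoietin to differentiate. The 8 libraries made 6 groups. Hairpin 1 and hairpin 2 against the long noncoding RNA Bloodlinc had 1 library each, set against 1 control hairpin library. Hairpin 1 and hairpin 2 against hnRNPU, a nuclear RNA-binding protein, had 1 library each and their own control hairpin library. A Bloodlinc expression vector had 1 library, set against 1 empty vector library. How many embryos or cultures stand behind a library is not in the labels, nor is it said whether hairpins 1 and 2 were used on separate cultures. Only hairpins 1 and 2 of each target give a spread, since the other groups have 1 library each. The p-values of edgeR rest on that spread as pooled across genes, and hardly on the spread of the gene itself. In the hnRNPU knockdown, hairpin 2 minus hairpin 1 was −1.99 on the log2 scale for Chac1 and −0.17 for Atf4. Their standard errors (SE) were nonetheless close, at 0.62 and 0.61. The spread between hairpins does not separate differences of hairpins from differences of libraries, and it may be technical.

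In the integrated stress response, kinases that sense different stresses phosphorylate the translation initiation factor eIF2. General protein synthesis drops, while a few mRNAs, that of the transcription factor ATF4 among them, are translated better. In erythroid cells the main such kinase is HRI, the product of Eif2ak1, which is active when heme is short and holds back globin synthesis. The unfolded protein response is the reaction of the endoplasmic reticulum (ER) to misfolded proteins. It shares the eIF2 and ATF4 branch and has a branch through the transcription factor XBP1 and a branch through ATF6, both of which raise ER chaperones such as BiP, the product of Hspa5. RNA counts show neither the phosphorylation of eIF2 nor the translation of Atf4, and counts per gene do not separate spliced from unspliced Xbp1 RNA.

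The promoters of 4 of the 10 genes held a literal match to a motif of these responses. They are shown because 3 of them share a motif while the levels of these genes, given further on, ran differently across the libraries. Promoter sequences of all 10 genes, from 250 bases before to 50 after the annotated start, were taken from RefSeq on GRCm38.p6. They were searched on both strands for TGATGNAA, a core of the C/EBP-ATF response element that ATF4 dimers bind, for the ER stress response element, spelled as CCAAT, any 9 bases and CCACG, and for TGACGTGG, a site of XBP1 and ATF6. The first motif occurred in 3.97% of 32851 mouse promoters of the same length, the second in 0.119% and the last in 0.676%. No motif overlapped another in these promoters. Capitals mark the match, and each sequence reads 5′ to 3′ on the strand of its gene.
Trib3, chr2:152344011-152344310, minus strand, TGATGNAA on the reverse strand at bases 265 to 272: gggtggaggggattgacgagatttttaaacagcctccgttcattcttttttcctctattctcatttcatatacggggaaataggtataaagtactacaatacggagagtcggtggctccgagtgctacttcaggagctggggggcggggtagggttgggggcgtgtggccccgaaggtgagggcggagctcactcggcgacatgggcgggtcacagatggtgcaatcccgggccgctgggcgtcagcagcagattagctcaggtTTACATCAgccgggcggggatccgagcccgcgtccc
Asns, chr6:7693160-7693459, minus strand, TGATGNAA on the strand shown at bases 228 to 235: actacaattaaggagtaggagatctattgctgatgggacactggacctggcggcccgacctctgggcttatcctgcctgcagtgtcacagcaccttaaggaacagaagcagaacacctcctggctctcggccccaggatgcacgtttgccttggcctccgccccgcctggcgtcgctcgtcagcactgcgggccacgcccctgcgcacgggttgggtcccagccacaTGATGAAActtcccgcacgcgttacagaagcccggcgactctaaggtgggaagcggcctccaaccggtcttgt
Chac1, chr2:119350992-119351291, plus strand, TGATGNAA on the reverse strand at bases 58 to 65: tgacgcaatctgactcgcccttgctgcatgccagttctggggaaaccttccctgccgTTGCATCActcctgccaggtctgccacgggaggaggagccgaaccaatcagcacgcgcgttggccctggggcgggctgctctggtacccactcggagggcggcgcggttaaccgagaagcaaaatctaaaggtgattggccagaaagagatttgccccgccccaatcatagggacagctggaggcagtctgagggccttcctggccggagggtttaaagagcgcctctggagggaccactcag
Hspa5, chr2:34771840-34772139, plus strand, ER stress response element on the strand shown at bases 186 to 204: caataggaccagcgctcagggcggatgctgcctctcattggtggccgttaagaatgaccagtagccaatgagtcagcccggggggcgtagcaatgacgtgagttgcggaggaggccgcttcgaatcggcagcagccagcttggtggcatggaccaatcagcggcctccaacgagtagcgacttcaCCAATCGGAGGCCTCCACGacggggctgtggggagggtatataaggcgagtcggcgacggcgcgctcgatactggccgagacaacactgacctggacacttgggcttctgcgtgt
The windows of Eif2ak1, Atf4, Ddit3, Sesn2, Ppp1r15a and Xbp1 held none of these letters, which says nothing of elements elsewhere or of other spellings.

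Counts in genes ran from 23682993 to 34540691 in 6 libraries, but came to 2931627 and 2612916 with hnRNPU hairpins 1 and 2. Reads placed outside genes made up 89.7% and 86.6% of unique placements in those 2 libraries and 21.7% to 30.1% in the other 6. Levels below are CPM, counts scaled to a common library size by edgeR's TMM factors, and intervals and limits from counts cover counting error only. Bloodlinc RNA stood at 2.19 and 1.75 CPM with its hairpins and at 4.46 CPM with the control hairpin (log2 fold change −1.18, adjusted p = 1, edgeR). Hnrnpu stood at 325 and 373 CPM with its hairpins and at 588 CPM with the control hairpin (log2 fold change −0.75, adjusted p = 0.73, edgeR), so neither target passed the test. Hnrnpu stood lower still, at 214 to 294 CPM, in the 3 libraries of the Bloodlinc knockdown, and Bloodlinc stood at 1.26 CPM in the empty vector library, below both of its hairpin libraries. With the Bloodlinc vector, Bloodlinc RNA stood at 5.46 CPM on 250 counts, and in the hnRNPU control hairpin library at 4.35 CPM. All 9 erythroid marker genes were detected in each library, with a summed level between 11443 and 50541 CPM. Markers of hepatocytes, summed over 6 genes, came to 10.8 CPM with the Bloodlinc vector and 12.1 CPM with the empty vector, with all 6 detected, and to between 0.307 and 2.36 CPM in the other 6 libraries. Alb was at 0 counts with Bloodlinc hairpin 1 and in the hnRNPU control library.

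All 10 stress response genes were detected in all 8 libraries and passed the filter on low counts (15355 genes tested). None passed the test in the Bloodlinc knockdown or in the hnRNPU knockdown. In the 3 control libraries, the highest level was at least 3-fold above the lowest for 6 of the 10 genes, Eif2ak1, Atf4, Asns, Chac1, Sesn2 and Hspa5, as it was for 41.8% of all genes tested. The median of that ratio was 2.51 over all genes tested and 1.95 over genes with a mean of at least 5 CPM. Of the latter genes, 25% had a ratio of at least 3. The 2 control hairpin libraries were at least 2-fold apart for Atf4, Trib3, Asns, Sesn2 and Hspa5, against 38.6% of all genes tested.

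**Figure D1:**
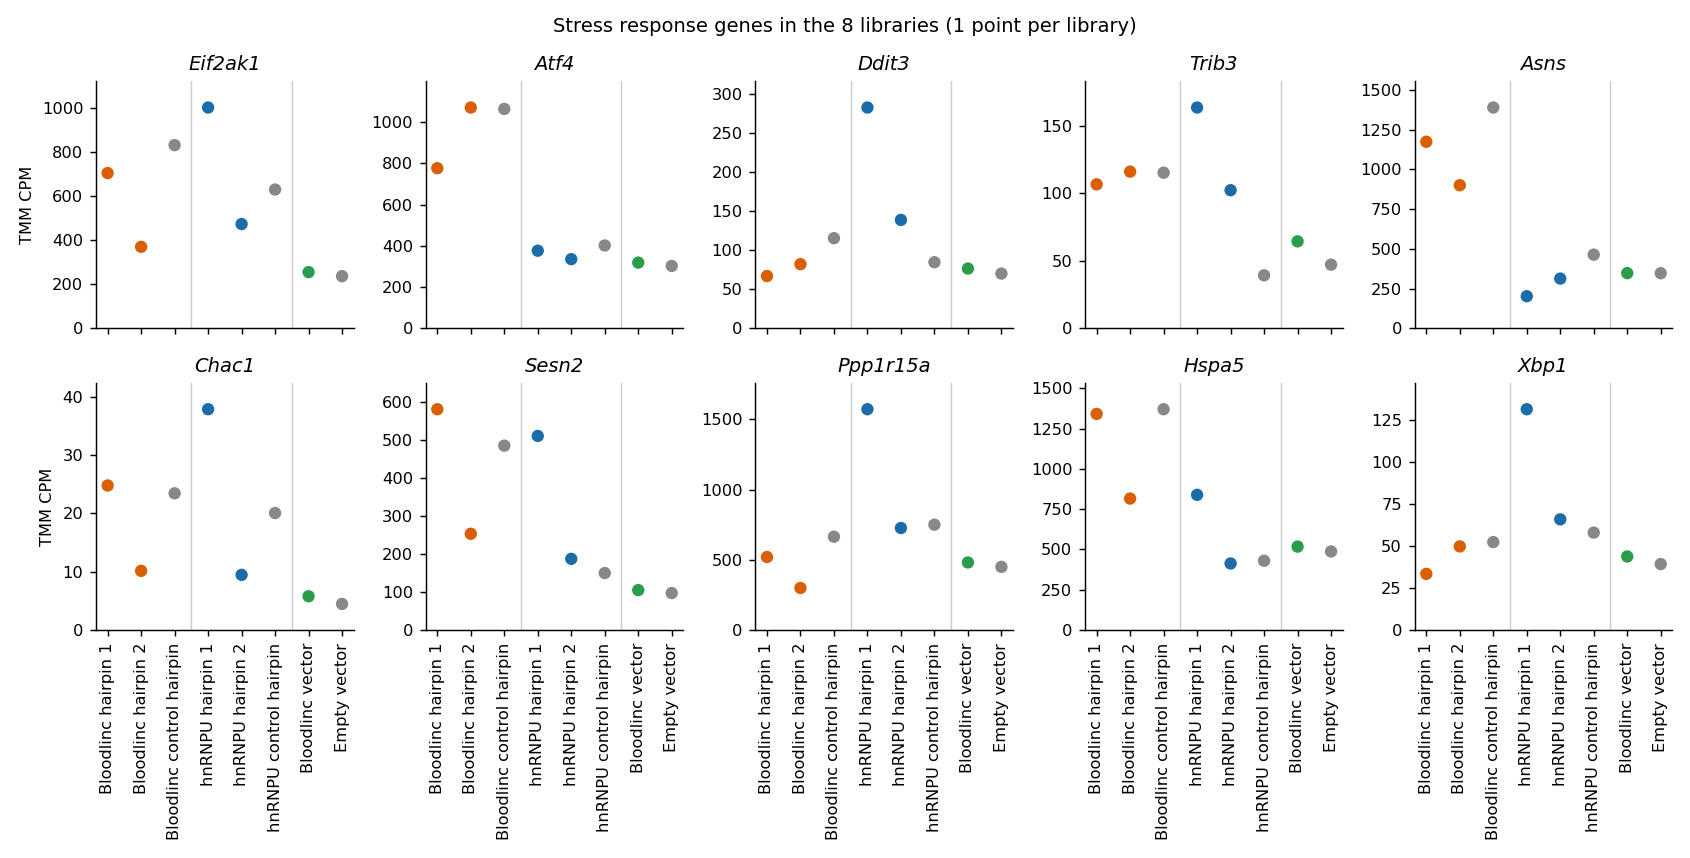
Each panel shows 1 stress response gene, with TMM CPM on a linear axis from 0 and 1 point for each of the 8 libraries. Orange points are Bloodlinc hairpins, blue points hnRNPU hairpins, green the Bloodlinc vector and grey the control of each comparison. Ddit3 and Xbp1 lie highest with both hnRNPU hairpins, Asns lies lowest there, and Atf4 and Asns lie high in the 3 libraries of the Bloodlinc knockdown.

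Per kilobase of exon, Asns, which encodes asparagine synthetase, and Atf4 had the highest means over the control libraries, at 268 ± 209 and 250 ± 176 CPM per kb (SD, n = 3). They led through the Bloodlinc control library, at 508 and 451 CPM per kb. Ppp1r15a, whose product GADD34 brings a phosphatase to eIF2 and so ends the response, followed at a mean of 212 ± 52.7 CPM per kb. It was the highest of the 10 genes in the hnRNPU control library (255 CPM per kb) and the empty vector library (153 CPM per kb). Hspa5 averaged 180 ± 125 CPM per kb and Eif2ak1 99.9 ± 53.4 CPM per kb in the same 3 libraries. Sesn2, which encodes the stress-induced regulator of mTORC1 signalling sestrin 2, averaged 70.2 ± 60.5 CPM per kb and Ddit3, which encodes the transcription factor CHOP, 52.7 ± 13.5 CPM per kb. Trib3, which encodes a pseudokinase that binds ATF4 and CHOP, averaged 31.7 ± 19.7 CPM per kb. Xbp1 averaged 15.3 ± 2.95 CPM per kb, and Chac1, which encodes an enzyme that breaks down glutathione, was the lowest at 9.76 ± 6.17 CPM per kb. Of the 9 pairs of neighbours in this order, 4 stood in the same order in each of the 3 control libraries, Eif2ak1 over Sesn2, Ddit3 over Trib3, Trib3 over Xbp1 and Xbp1 over Chac1. The other 5 pairs changed places in at least 1 control library, so their order was not settled by these controls.

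**Figure D2:**
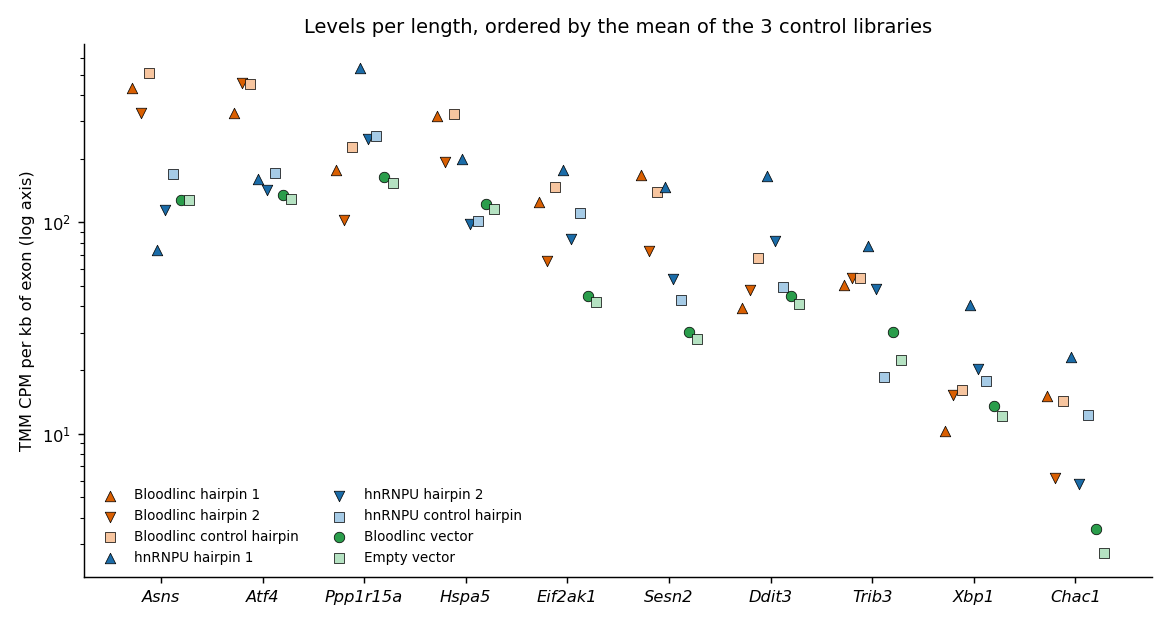
Levels in TMM CPM per kilobase of exon on a log axis, with genes ordered by the mean of the 3 control libraries (squares). Up and down triangles are hairpins 1 and 2 (orange for Bloodlinc, blue for hnRNPU) and the circle is the Bloodlinc vector. Asns has a mean of 268 CPM per kb in the controls and Chac1 one of 9.76, and within a gene the libraries spread over 3.32-fold (Hspa5) to 8.45-fold (Chac1).

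The sensor came first in the order of the pathway. Eif2ak1 (ENSMUSG00000029613) lies on chromosome 5 from 143817788 to 143904251 on the plus strand of GRCm38. It stood at 705 and 370 CPM with Bloodlinc hairpins 1 and 2 and at 832 CPM with their control hairpin. With hnRNPU hairpins 1 and 2 it stood at 1002 and 474 CPM, and at 630 CPM with their control hairpin. The Bloodlinc vector library had 255 CPM and the empty vector library 237 CPM. Both Bloodlinc hairpins thus lay below their control, the hnRNPU hairpins lay on either side of theirs, and both vector libraries lay below the other 6. The log2 fold change was −0.63 (SE 0.60, adjusted p = 1) in the Bloodlinc knockdown and 0.23 (SE 0.62, adjusted p = 0.934) in the hnRNPU knockdown by edgeR's quasi-likelihood test.

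Per kilobase of exon, Eif2ak1 was the most abundant of the 4 eIF2 kinase genes in each of the 8 libraries, with a median of 97.3 CPM per kb. Eif2ak2, the gene of the double-stranded RNA sensor PKR, had a median of 5.76 CPM per kb. Eif2ak3, the gene of the ER stress sensor PERK, had 2.16 CPM per kb, and Eif2ak4, the gene of the amino acid sensor GCN2, 2.10 CPM per kb. The ratio of Eif2ak1 to Eif2ak2 was smallest at 6.59 and largest at 32.1 over the 8 libraries. These kinases were set beside Eif2ak1 after their values were seen. Eif2ak2 stood at 106 and 24.4 CPM with hnRNPU hairpins 1 and 2 and at 17.7 CPM with their control (log2 fold change 1.87, SE 0.60, adjusted p = 0.138 by edgeR).

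Atf4 (ENSMUSG00000042406; chromosome 15, 80255184 to 80257541, plus strand) stood at 777 and 1071 CPM with Bloodlinc hairpins 1 and 2 and at 1064 CPM with their control hairpin. It stood at 377 and 336 CPM with hnRNPU hairpins 1 and 2, at 402 CPM with their control, at 319 CPM with the Bloodlinc vector and at 303 CPM with the empty vector. The 3 libraries of the Bloodlinc knockdown, control included, stood above the other 5, while within a comparison the levels lay close together. EdgeR put the log2 fold change at −0.20 (SE 0.60, adjusted p = 1) for Bloodlinc and at −0.17 (SE 0.61, adjusted p = 0.945) for hnRNPU. The hnRNPU value turned to 0.013 with upper quartile scaling and to 0.050 with all libraries thinned to equal gene counts.

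Ddit3 and Trib3 are induced downstream of ATF4, CHOP as a transcription factor that can drive stressed cells into apoptosis and TRIB3 as a feedback inhibitor. Ddit3 (ENSMUSG00000025408; chromosome 10, 127290774 to 127296288, plus strand) stood at 283 and 139 CPM with hnRNPU hairpins 1 and 2, on 479 and 353 counts, and at 84.8 CPM with their control. It stood at 67.1 and 82.3 CPM with Bloodlinc hairpins 1 and 2, at 116 CPM with their control, at 76.7 CPM with the Bloodlinc vector and at 70.3 CPM with the empty vector. The hnRNPU hairpin libraries were thus the highest of the 8, and both Bloodlinc hairpins lay below their control. The log2 fold change was 1.31 (SE 0.59, 95% interval 0.17 to 2.46, adjusted p = 0.414) in the hnRNPU knockdown and −0.63 (SE 0.54, adjusted p = 1) in the Bloodlinc knockdown by edgeR.

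Trib3 (ENSMUSG00000032715; chromosome 2, 152337422 to 152344032, minus strand) had the largest log2 fold change of the 10 genes in the hnRNPU knockdown. It stood at 164 and 102 CPM with hnRNPU hairpins 1 and 2, on 277 and 260 counts, and at 39.3 CPM with their control, which was the lowest of the 8 libraries. With Bloodlinc hairpins 1 and 2 it stood at 107 and 116 CPM, and at 115 CPM with their control. The Bloodlinc vector library had 64.5 CPM and the empty vector library 47.2 CPM. The hnRNPU hairpins therefore lay above their own control, but hairpin 2 lay below the 3 libraries of the Bloodlinc knockdown. The log2 fold change of 1.76 (SE 0.59, 95% interval 0.59 to 2.92) missed edgeR's threshold (adjusted p = 0.178), passed with DESeq2 (log2 fold change 1.91, adjusted p = 0.0493), and was 0.20 against the other control hairpin library. Its adjusted p ran from 0.0493 to 1 over 14 alternative settings, and its log2 fold change was above 0 in all 14, most of which reused the same libraries. In the Bloodlinc knockdown the log2 fold change was −0.050 (SE 0.54, adjusted p = 1).

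Asns, Chac1 and Sesn2 are genes that ATF4 drives and that bear on amino acids and redox balance. The Asns promoter holds the same motif as that of Trib3, and whether the motif has a part in these levels was not tested. Asns was lower with both hnRNPU hairpins than with their control, without passing the test. Asns (ENSMUSG00000029752; chromosome 6, 7675169 to 7693254, minus strand) stood at 202 and 313 CPM with hnRNPU hairpins 1 and 2, the lowest levels of the 8 libraries, and at 464 CPM with their control. It stood at 1174 and 901 CPM with Bloodlinc hairpins 1 and 2 and at 1390 CPM with their control. The vector pair was level, with 348 CPM for Bloodlinc and 347 CPM for the empty vector. EdgeR put the log2 fold change at −0.85 (SE 0.60, adjusted p = 0.698) for hnRNPU and at −0.42 (SE 0.60, adjusted p = 1) for Bloodlinc, neither of which passed. Both hnRNPU hairpin libraries lay below the other 6 for 17.5% of all genes tested, and above the other 6, as for Ddit3 and Xbp1, for 13% of them.

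Chac1 (ENSMUSG00000027313; chromosome 2, 119351229 to 119354381, plus strand) was the least expressed of the 10 genes, and its promoter too holds TGATGNAA. It stood at 37.8 CPM with hnRNPU hairpin 1 and at 9.45 CPM with hairpin 2, on 64 and 24 counts, and at 20.04 CPM with their control. With Bloodlinc hairpins 1 and 2 it stood at 24.8 and 10.1 CPM, and at 23.4 CPM with their control, while the Bloodlinc vector library had 5.79 CPM and the empty vector library 4.48 CPM. In each knockdown hairpin 1 lay above the control and hairpin 2 below it. Sesn2 (ENSMUSG00000028893; chromosome 4, 132492032 to 132510501, minus strand) stood at 580 and 253 CPM with Bloodlinc hairpins 1 and 2 and at 485 CPM with their control. It stood at 510 and 187 CPM with hnRNPU hairpins 1 and 2, at 150 CPM with their control, at 105 CPM with the Bloodlinc vector and at 97.3 CPM with the empty vector. Both hnRNPU hairpins lay above their control for Sesn2, but hairpin 2 by only 0.32 on the log2 scale against 1.77 for hairpin 1. In the hnRNPU knockdown the log2 fold change was 1.22 (SE 0.62, adjusted p = 0.508) for Sesn2 and 0.21 (SE 0.62, adjusted p = 0.941) for Chac1, and in the Bloodlinc knockdown −0.22 (SE 0.58) and −0.43 (SE 0.59), with an adjusted p of 1 for both in edgeR.

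Ppp1r15a (ENSMUSG00000040435; chromosome 7, 45522916 to 45526268, minus strand) stood at 520 and 300 CPM with Bloodlinc hairpins 1 and 2 and at 665 CPM with their control. It stood at 1573 and 727 CPM with hnRNPU hairpins 1 and 2, at 750 CPM with their control, at 481 CPM with the Bloodlinc vector and at 450 CPM with the empty vector. Both Bloodlinc hairpins lay below their control, and the hnRNPU hairpin 1 library stood at about 2-fold its control while hairpin 2 was level with it. The log2 fold changes were −0.70 (SE 0.60, adjusted p = 1), the lowest of the 10 genes in the Bloodlinc knockdown, and 0.62 (SE 0.63, adjusted p = 0.814) in the hnRNPU knockdown by edgeR.

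In the ER branch, Hspa5, with the ER stress response element shown above and none in the promoter of Xbp1, comes first. Hspa5 (ENSMUSG00000026864; chromosome 2, 34771970 to 34777547, plus strand) stood at 1341 and 816 CPM with Bloodlinc hairpins 1 and 2 and at 1370 CPM with their control. With hnRNPU hairpins 1 and 2 it stood at 839 and 413 CPM, and at 430 CPM with their control, while the Bloodlinc vector library had 518 CPM and the empty vector library 488 CPM. Hairpin 2 of hnRNPU was level with its control, and the Bloodlinc control library was the highest of all. Xbp1 (ENSMUSG00000020484; chromosome 11, 5520659 to 5525893, plus strand) stood at 131 and 65.8 CPM with hnRNPU hairpins 1 and 2 and at 57.9 CPM with their control. It stood at 33.4 and 49.7 CPM with Bloodlinc hairpins 1 and 2, at 52.3 CPM with their control, at 43.7 CPM with the Bloodlinc vector and at 39.2 CPM with the empty vector. For Xbp1 both hnRNPU hairpins lay above the other 6 libraries, hairpin 2 only slightly above the control. In the hnRNPU knockdown the log2 fold change was 0.76 (SE 0.56, adjusted p = 0.708) for Xbp1 and 0.54 (SE 0.64, adjusted p = 0.836) for Hspa5, and in the Bloodlinc knockdown −0.33 (SE 0.53) and −0.35 (SE 0.61), with an adjusted p of 1 for both in edgeR.

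**Figure D3:**
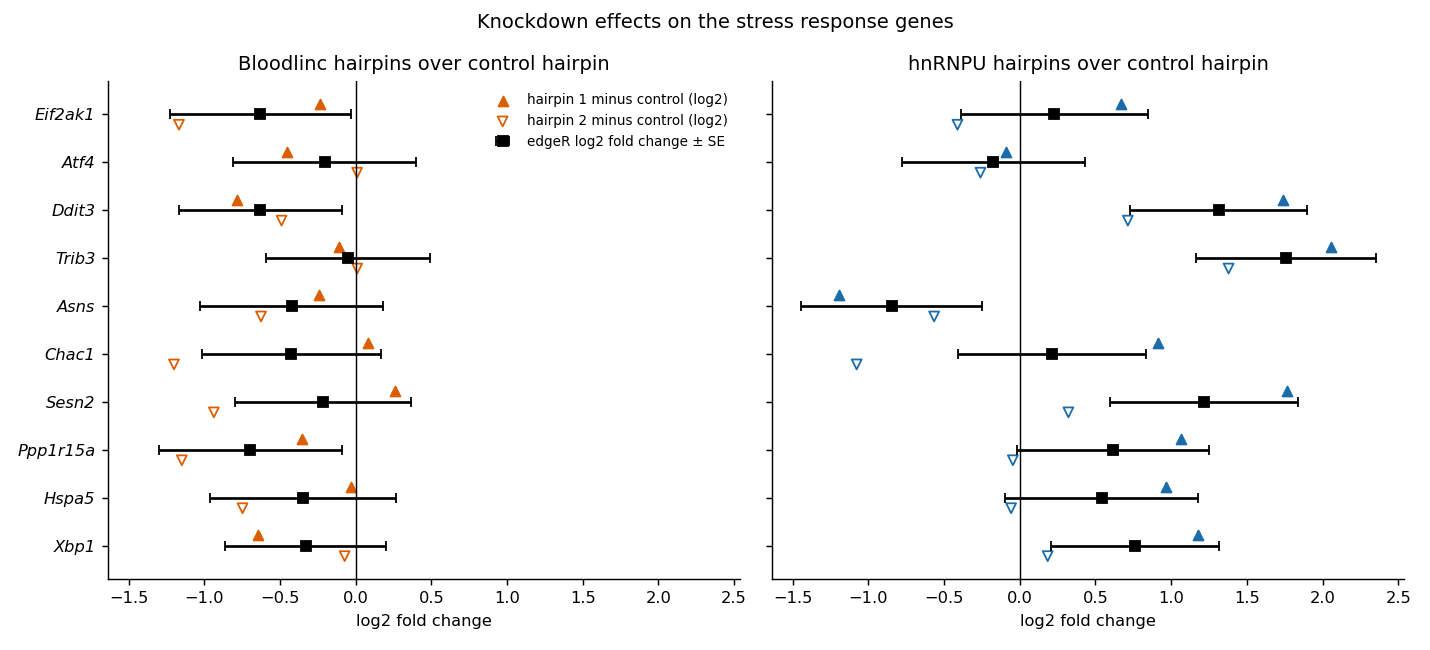
Log2 fold change of each gene over the control hairpin library, with the Bloodlinc knockdown on the left and the hnRNPU knockdown on the right. Squares with bars are edgeR's estimate ± SE, filled up triangles hairpin 1 alone and open down triangles hairpin 2 alone. In the Bloodlinc knockdown the squares lie between −0.70 and −0.050, and in the hnRNPU knockdown between −0.85 (Asns) and 1.76 (Trib3), with hairpin 1 above hairpin 2 for 9 of the 10 genes.

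The Bloodlinc knockdown asked what follows when this RNA is targeted. All 10 genes had a log2 fold change below 0, with a median of −0.38 against 0.055 over all genes tested, of which 44.6% lay below 0. Both hairpins lay below the control for 6 of the 10 (Eif2ak1, Ddit3, Asns, Ppp1r15a, Hspa5 and Xbp1) and above it for none, while 30.7% of all genes tested had both below and 31.5% both above. None of the 10 passed in either direction, as against 0.124% of all genes tested, and DESeq2 called none. In edgeR 0 of the 10 had an unadjusted p under 0.05, as did 3.99% of all genes tested. Eif2ak1, Ddit3, Ppp1r15a and Xbp1 were lower in all 14 alternative settings, while the other 6 turned in at least 1. Most of these settings reused the same hairpin and control libraries, so they are not independent checks of a sign. Against the other control hairpin library 5 of the 10 were higher and 5 lower, with Trib3 at 1.503 (adjusted p = 0.108, edgeR) and a median of 0.49. The erythroid markers were lower in the same comparison (9 of 9, summed 29514 and 22500 CPM with hairpins 1 and 2 against 50541 CPM with the control), and whether they have a part in these values was not tested. In bulk RNA, fewer cells of a type and less RNA per cell cannot be told apart.

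The hnRNPU knockdown asked the same of hnRNPU. The log2 fold change lay above 0 for 8 of the 10 genes, all but Atf4 and Asns, with a median of 0.58 against −0.094 over all genes tested, of which 45.7% lay above 0. Against the other control hairpin library 4 were higher and 6 lower, with a median of −0.093. Both hairpins lay above the control for 4 (Ddit3, Trib3, Sesn2 and Xbp1) and below it for 2 (Atf4 and Asns), against 28.6% and 42.3% of all genes tested. None of the 10 passed, against 0.879% of all genes tested, and Ddit3 and Trib3 were at an unadjusted p under 0.05, as were 9.89% of all genes tested. The hairpin 1 library carried most of this, with a median of 1.02 over the 10 genes against −0.052 for hairpin 2. Over all genes tested these medians were −0.28 for hairpin 1 and −0.12 for hairpin 2. It held the highest level of the 8 libraries for 6 of the 10 genes, Eif2ak1, Ddit3, Trib3, Chac1, Ppp1r15a and Xbp1, which was the case for 22.5% of all genes tested. Without hairpin 1, 6 of the 10 were lower and the median was −0.060, against −0.0999 over all genes in that fit.

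Granulocyte markers, as a sum, stood higher in the same 2 libraries. Their 8 genes were all detected in every library. They summed to 8907 and 3363 CPM with hnRNPU hairpins 1 and 2 and to 1567 CPM with their control. Ngp (log2 fold change 2.73, adjusted p = 0.0151, edgeR) and Ltf (2.71, adjusted p = 0.0136), which encode neutrophil granule proteins, rose. S100a8 (2.14) and S100a9 (2.28) were higher without passing. Mpo (0.37), Elane (0.12), Prtn3 (0.25) and Ctsg (0.23) lay closer to the control. Over the Bloodlinc knockdown all 8 granulocyte markers summed to 39.9 and 51.5 CPM with hairpins 1 and 2 and to 97.1 CPM with the control. In the vector pair these 8 summed to 929 CPM with Bloodlinc and 967 CPM with the empty vector. Erythroid markers summed to 46338 and 27499 CPM with hnRNPU hairpins 1 and 2 and to 33226 CPM with their control, with 4 of the 9 genes higher and 5 lower. None of the 9 passed edgeR's test, and Epor (log2 fold change −1.76), Klf1 (−1.57) and Tfrc (−1.38) were lower at an unadjusted p under 0.05. Macrophage markers summed to 75.7 and 30.7 CPM with hnRNPU hairpins 1 and 2 and to 21.1 CPM with the control, with C1qa at 0 counts in all 3. Mast cell markers summed to 27.2 and 36.2 CPM with those hairpins and to 17.5 CPM with the control, with Fcer1a at 0 counts in all 3. Megakaryocyte markers, all 6 detected, summed to 106 and 79.2 CPM with the hairpins and to 74.5 CPM with the control. Whether these cells, or the high share of counts outside genes, have a part in the stress gene levels was not tested.

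Genes that overlap members were set beside them, since the libraries keep strand but the strand setting of the counting is not given. Exons of Mars, the gene of methionyl-tRNA synthetase, overlap those of Ddit3 on the other strand. Mars stood at 66.8 and 83.9 CPM with hnRNPU hairpins 1 and 2 and at 124 CPM with their control, the opposite order to Ddit3. Aimp2, which encodes a scaffold of tRNA synthetases and overlaps Eif2ak1, stood at 5.91 and 16.9 CPM with those hairpins and at 22.3 CPM with the control, far below Eif2ak1. Tulp2 overlaps Ppp1r15a and reached at most 0.591 CPM in any library. Ankrd61, also at Eif2ak1, reached at most 0.591 CPM as well, and Gm4189, also at Ddit3, at most 0.875 CPM.

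The 2 knockdown effects were compared directly, as the difference hnRNPU minus Bloodlinc in the same fit. The 2 comparisons shared no library. The difference was largest for Ddit3 at 1.94 (SE 0.79, adjusted p = 0.743) and Trib3 at 1.81 (SE 0.78, adjusted p = 0.869), and it was −0.42 for Asns (SE 0.87, adjusted p = 1). It lay above 0 for 9 of the 10 genes, against 38% of all genes tested, and passed edgeR's test for none, against 0.326% of all genes tested. DESeq2 also called none, and Ddit3 and Trib3 were again at an unadjusted p under 0.05, as were 4.11% of all genes tested.

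In the overexpression pair there was 1 library a group and no test was run, so the differences have no replicate check and the intervals cover counting error only. All 10 genes stood higher with the Bloodlinc vector than with the empty vector, as did 51.3% of all genes tested. The differences were small. The largest was that of Trib3, 0.45 on the log2 scale (95% counting interval 0.37 to 0.53), followed by Chac1 at 0.37 (0.095 to 0.65) and Xbp1 at 0.16 (0.063 to 0.25), and the smallest that of Asns at 0.0030 (−0.030 to 0.036). None reached 2-fold, which 0.371% of all genes tested did upwards and 1.38% downwards. The Bloodlinc vector library lay within the range of the 3 control libraries for all 10 genes, while 29.4% of all genes tested lay outside it. Both vector libraries lay below the other 6 for Eif2ak1, Atf4, Chac1 and Sesn2, as they did for 10.6% of all genes tested. Erythroid markers were also lowest in these 2 libraries, summing to 12592 CPM with the Bloodlinc vector and 11443 CPM with the empty vector, against 22500 CPM or more in the other 6, and their part in the stress gene levels was not tested.

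Across the 8 libraries some members ran together. Pearson's r of log2 CPM is given as a description over 8 libraries, 2 of them far shallower than the rest. Among all pairs of members it was highest for Eif2ak1 with Chac1 (0.98), Ddit3 with Xbp1 (0.96) and Atf4 with Asns (0.90). It was lowest for Asns, at −0.59 with Xbp1, −0.51 with Ppp1r15a and −0.50 with Ddit3. Atf4 and Asns both lay high in the libraries of the Bloodlinc knockdown, control included. How common such values are between other genes was not examined. Of 8327 other protein-coding genes with a mean of at least 5 CPM, those most like Eif2ak1 were Gpcpd1, Mfsd12 and Rffl (r from 0.990 to 0.991 over 8 libraries). Those most like Atf4 were Txndc9, Trim23 and Gpbp1l1 (r from 0.987 to 0.996), and those most like Hspa5 were Sertad1, Cept1 and Dclre1c (r from 0.975 to 0.992).

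The wider pathway was read from 6 further lists, and none of their 87 tested genes passed edgeR's test in either knockdown. At an unadjusted p under 0.05 there were 3 in the Bloodlinc knockdown and 11 in the hnRNPU knockdown, against 3.99% and 9.89% of all genes tested, and DESeq2 called none in either. Of 12 genes of the other eIF2 kinases, eIF2 and its exchange factor eIF2B, 2 were higher and 10 lower with the hnRNPU hairpins (median log2 fold change −0.75 against −0.094 over all genes tested, of which 53.4% lay below 0). Both hairpins lay below the control for the same number, 10, against 42.3% of all genes tested. In the Bloodlinc knockdown 6 were higher and 6 lower (median 0.023 against 0.055 over all genes tested). Eif2s3x, which encodes the gamma subunit of eIF2, stood at 104 and 176 CPM with hnRNPU hairpins 1 and 2 and at 323 CPM with their control (log2 fold change −1.20, SE 0.57, adjusted p = 0.458, edgeR). Ppp1r15b, whose product is the constitutive partner of the eIF2 phosphatase, stood at 277 and 246 CPM with those hairpins and at 311 CPM with the control.

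Other regulators linked to ATF4 lay on the opposite side in the hnRNPU knockdown. Of 12 in the list 11 were tested, 10 of them higher and 1 lower (median 0.88), while 45.7% of all genes tested lay above 0. Both hairpins lay above the control for 7, against 28.6% of all genes tested. Hairpin 1 alone had a median of 1.37 and hairpin 2 one of 0.52. In the Bloodlinc knockdown 5 were higher and 6 lower (median −0.052). Atf5, the gene of a transcription factor close to ATF4, stood at 512 and 156 CPM with hnRNPU hairpins 1 and 2 and at 93.4 CPM with their control (log2 fold change 1.84, SE 0.63, adjusted p = 0.181, edgeR). Cebpg, which encodes a dimer partner of ATF4, stood at 88.7 and 65.4 CPM with those hairpins and at 73.2 CPM with the control.

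Among 19 genes of amino acid synthesis and transport, 4 were higher and 15 lower with the hnRNPU hairpins (median −0.41), and 6 were higher and 13 lower with the Bloodlinc hairpins (median −0.20). Shmt2, the gene of mitochondrial serine hydroxymethyltransferase, stood at 74.5 and 105 CPM with hnRNPU hairpins 1 and 2 and at 185 CPM with their control (log2 fold change −1.04, SE 0.56, adjusted p = 0.544, edgeR). Slc3a2, the gene of the heavy chain shared by several amino acid transporters, stood at 577 and 286 CPM with those hairpins and at 301 CPM with the control. Chosen after its values were seen, the neutral amino acid transporter gene Slc1a4 stood at 135 and 67.4 CPM with hnRNPU hairpins 1 and 2 and at 27.5 CPM with their control (log2 fold change 1.87, SE 0.59, adjusted p = 0.12, edgeR). Also chosen so, the cystine transporter gene Slc7a11 stood at 36.4 and 49.4 CPM with Bloodlinc hairpins 1 and 2 and at 111 CPM with their control (log2 fold change −1.37, SE 0.52, adjusted p = 0.759, edgeR).

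Of 12 cytosolic tRNA synthetase genes, 2 were higher and 10 lower with the hnRNPU hairpins (median −0.65), and 3 were higher and 9 lower with the Bloodlinc hairpins (median −0.16). Aars, the alanyl-tRNA synthetase gene, stood at 429 and 375 CPM with hnRNPU hairpins 1 and 2 and at 576 CPM with their control. Nars, the asparaginyl-tRNA synthetase gene, stood at 517 and 323 CPM with those hairpins and at 394 CPM with the control. Of 17 genes of ER chaperones and folding enzymes, 6 were higher and 11 lower with the hnRNPU hairpins (median −0.13), and 11 were higher and 6 lower with the Bloodlinc hairpins (median 0.067). Calr, the gene of the lectin chaperone calreticulin, stood at 384 and 340 CPM with hnRNPU hairpins 1 and 2 and at 435 CPM with their control, and Canx, the gene of its membrane relative calnexin, at 261 and 401 CPM with those hairpins and at 505 CPM with the control. Of 17 genes of ER stress sensors and ER-associated degradation 16 were tested, 9 of them higher and 7 lower with the hnRNPU hairpins (median 0.27) and 7 higher and 9 lower with the Bloodlinc hairpins (median −0.021). Derl1, which encodes a channel component for retrotranslocation, stood at 361 and 211 CPM with hnRNPU hairpins 1 and 2 and at 185 CPM with their control, and Vcp, which encodes the ATPase that extracts proteins from the ER membrane, at 168 and 151 CPM with those hairpins and at 211 CPM with the control.

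**Figure D4:**
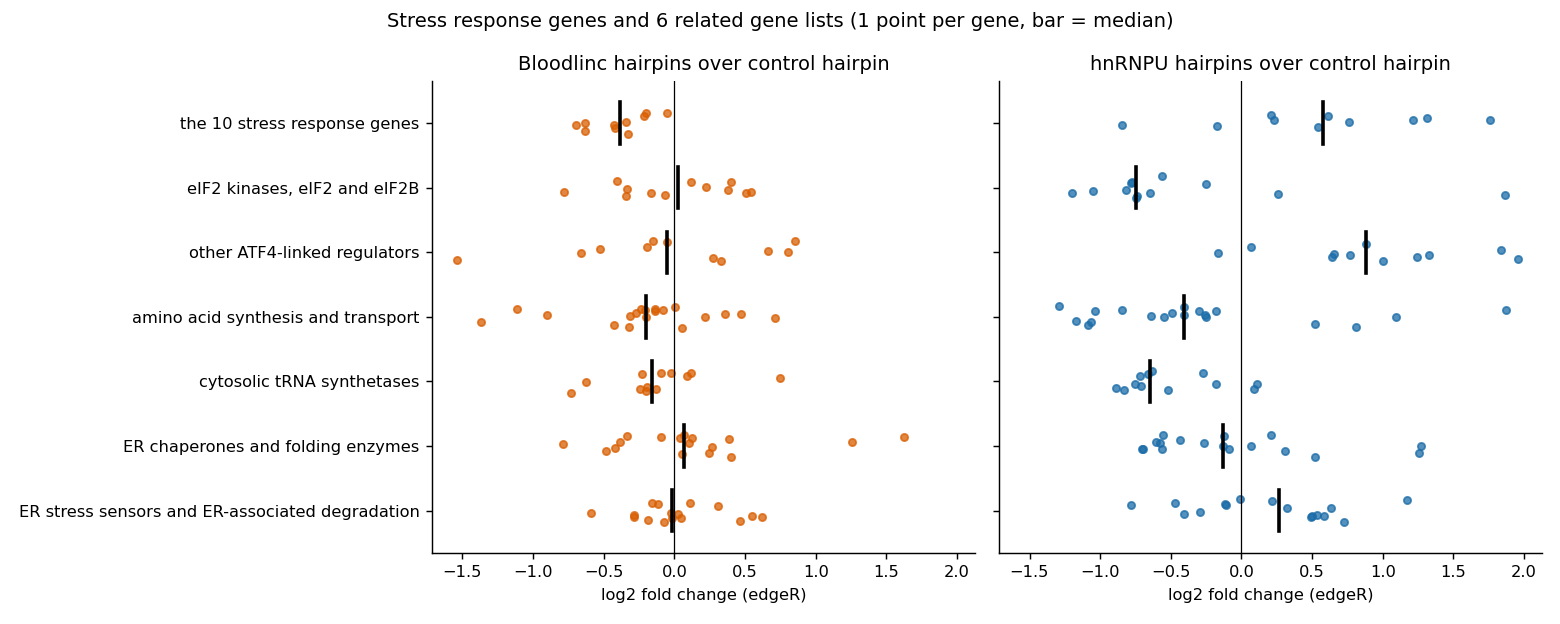
Log2 fold changes of the 10 stress response genes and of 6 related lists, with 1 point per tested gene, a bar at the median, the Bloodlinc knockdown on the left and the hnRNPU knockdown on the right. In the hnRNPU knockdown the medians are 0.58 for the 10 genes and 0.88 for other ATF4-linked regulators, against −0.75 for the eIF2 list and −0.65 for the tRNA synthetases. In the Bloodlinc knockdown all list medians lie between −0.38 and 0.067.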

How the data were processed

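RNA depleted of ribosomal RNA was sequenced on a HiSeq2000 from strand-specific libraries made with dUTP marking, per the labels' protocols. The authors deposited raw counts per Ensembl gene ID, made with TopHat2 2.0.11 on mm9 and HTSeq, per the submitters' processing notes. The HTSeq version, annotation release and strand setting are not given in the sources used here. GENCODE M21 on GRCm38 supplied symbols, positions and exon lengths for 87.4% of the 37620 IDs, and coordinates were not used to count reads.

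All 8 libraries entered 1 edgeR 4.0.16 fit (R 4.3.3) with 6 groups, TMM scaling, filterByExpr (15355 genes) and quasi-likelihood F-tests, with Benjamini-Hochberg adjustment over all genes and a threshold of 0.05. The hairpins of both targets together gave 2 residual degrees of freedom, and the prior had 397, so the spread of each gene was drawn almost wholly to the trend. Single control libraries were assumed to vary like the hairpins. SE is the log2 fold change over the square root of F. Differences of single libraries used a prior count of 2, and vector pair intervals are exact conditional binomial at 95%. A floor of 3 counts corresponds to 0.0655 (Bloodlinc vector) to 1.77 (hnRNPU hairpin 1) TMM CPM, below all members. The TMM factor of the hnRNPU hairpin 1 library was 0.577.

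The members, gene lists and tests were chosen with earlier results of these data known. Named genes were the members and, from each list, up to 4 that passed or else the 2 most abundant. Likeness was ranked by Pearson's r. Other genes are said to be chosen after their values were seen. Alternatives were DESeq2 1.42.0, other scalings, no filter, removal of the 20 most abundant IDs, thinning of gene counts to those of the shallowest library (reads outside genes were not matched), other controls, fewer libraries and each hairpin left out.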

Additional observations from a re-analysis of the deposited data

Results flagged for a closer look

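For Ddit3 both hnRNPU hairpins stood above their control and both Bloodlinc hairpins below theirs. The difference of the effects (hnRNPU minus Bloodlinc) was 1.94 on the log2 scale (SE 0.79) and missed edgeR's threshold (adjusted p = 0.743). Xbp1 showed the same opposite directions, with a difference of 1.09 (SE 0.76, adjusted p = 1). Both rest on 2 hairpin libraries and 1 control library in each knockdown.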

How the results depend on the processing

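None of the 10 genes passed in the Bloodlinc knockdown or in the difference of the knockdown effects under any setting tried. In the hnRNPU knockdown 1 (Trib3) passed with DESeq2, and 2 (Atf4 at −1.58 and Asns at −2.43) passed as lower against the other control hairpin library. Of the 87 tested genes of the 6 further lists, 1 passed with upper quartile scaling and 13 against the other control in the hnRNPU knockdown. Over all 15355 genes, the hnRNPU knockdown had 100 called with DESeq2, 163 with upper quartile scaling and 2340 against the other control.

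The count of all genes called depended more on the setting. In the Bloodlinc knockdown it was 19, against 5 with DESeq2, 1043 against the other control, and 0 with thinning (298 at an unadjusted p under 0.05), with pooled controls (1565), with the 3 libraries alone (369) or without both hnRNPU hairpins (504), all in edgeR. In the hnRNPU knockdown it was 135, against 12 with thinning, 2340 against the other control and 7 with pooled controls. For the difference it was 50, against 16 with DESeq2 and 3 with thinning. With 1 hairpin library left out the counts ran from 0 to 63 (Bloodlinc), 7 to 121 (hnRNPU) and 6 to 37 (difference), with 63 without Bloodlinc hairpin 1, 0 without Bloodlinc hairpin 2 or hnRNPU hairpin 1 or 2 (291, 501 and 497 at an unadjusted p under 0.05), and 7 and 59 in the hnRNPU knockdown without its hairpins 1 and 2. Fits with fewer libraries have fewer residual degrees of freedom, and the lone hairpin is assumed to vary like the other groups. With DESeq2 in place of edgeR the median of all genes moved from −0.094 to 0.10 in the hnRNPU knockdown.

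Signs of the 10 genes turned with the control, with a hairpin left out and, for Atf4, with scaling, filter or thinning. In the Bloodlinc knockdown, Atf4, Trib3, Asns, Sesn2 and Hspa5 came to 1.20, 1.503, 1.16, 1.48 and 1.33 against the other control, and with pooled controls they came to 0.65, 0.73, 0.50, 0.77 and 0.50, with Chac1 at 0.13. With 1 library left out, Atf4 ran from −0.45 to 0.034, Trib3 from −0.11 to 0.034, Chac1 from −1.18 to 0.081 and Sesn2 from −0.91 to 0.26, turning for Atf4 and Trib3 without hairpin 1 and for Chac1 and Sesn2 without hairpin 2. In the hnRNPU knockdown, Eif2ak1, Chac1, Sesn2 and Hspa5 came to −0.17, −0.013, −0.48 and −1.13 against the other control, Hspa5 to −0.28 with pooled controls, and Atf4 to 0.013 with upper quartile scaling and 0.050 with thinning. With 1 library left out, Eif2ak1 ran from −0.42 to 0.67, Chac1 from −1.09 to 0.91, Ppp1r15a from −0.054 to 1.06 and Hspa5 from −0.066 to 0.96, each lowest without hnRNPU hairpin 1. For the difference, Atf4 came to −0.011 without a filter, −0.041 without the most abundant IDs, and from −0.24 to 0.29 with 1 library left out, and Chac1 from −0.69 to 1.36. In all 14 alternatives of the hnRNPU knockdown Ddit3 (0.71 to 1.74), Trib3 (0.20 to 2.05) and Xbp1 (0.18 to 1.18) lay above 0 and Asns (−2.43 to −0.57) below it, with Ddit3 and Xbp1 lowest without hairpin 1. In those of the Bloodlinc knockdown Eif2ak1 (−1.14 to −0.075), Ddit3 (−0.78 to −0.18), Ppp1r15a (−1.12 to −0.35) and Xbp1 (−0.65 to −0.049) lay below 0. Most of the 14 alternatives reused the same hairpin and control libraries, so a sign kept in all of them was not checked independently 14 times. The cause of the turns was not tested. Set against the Bloodlinc or the hnRNPU control library in place of the empty vector, 6 and 2 of the 10 genes lay at least 2-fold away from the Bloodlinc vector library, against 0. No share over all genes tested stands beside these counts, so they say nothing particular of the 10 genes. The control hairpin libraries were themselves at least 2-fold apart for 38.6% of all genes tested.

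No paired analysis was possible because each control group is 1 library and hairpins 1 and 2 of the 2 targets share only a number. With 2612916 gene counts in the shallowest library, Chac1 rests on 24 counts there.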
